A study of Mus musculus with 8 samples.

Results

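The genes described here make ribosomes: 40 mouse genes of the nucleolus taken by symbol from a list of names, out of 23234 genes with a value in each library. All 40 were listed, and all 40 were among the 13549 genes that reached 1 FPKM (fragments scaled to the length of the transcript and to the mapped total of the library) in at least 2 libraries and were tested. By role they comprise 7 nucleolar chaperones and organizers, 7 genes of RNA polymerase I transcription, 8 of the small nucleolar ribonucleoproteins (snoRNPs), 9 of small subunit assembly and 9 of large subunit assembly. Transcripts were measured by RNA-seq in whole mouse embryos made with Tet3-null or wild-type oocytes, Tet3 being a dioxygenase that oxidizes methylated cytosine in the zygote. The groups were blastocysts from Tet3-null oocytes, blastocysts from wild-type oocytes, 2-cell embryos from Tet3-null oocytes and 2-cell embryos from wild-type oocytes, with 2 libraries in each. Tet3-null oocytes came from females with 1 floxed and 1 deleted Tet3 allele and the Zp3-Cre transgene, which acts in growing oocytes. Wild-type oocytes came from f/f females, whose Cre status the labels do not give. Every oocyte was fertilized in vitro with CAST/EiJ sperm, so that embryos of each group also carried a paternal Tet3 allele. Blastocyst libraries were made from pools of 7 embryos at 96 h and 2-cell libraries from pools of 10 embryos at 30 h after fertilization. The labels do not say that the libraries of a group came from separate collections, so p-values describe the spread between the libraries at hand, part or all of which could be technical.

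In the nucleolus, RNA polymerase I copies the ribosomal DNA into a long precursor, snoRNPs guide its methylation and pseudouridylation, and assembly factors of the small and the large subunit fold and cut it while ribosomal proteins bind. The mouse oocyte goes silent before ovulation with a stock of ribosomes, and its nucleolus becomes a compact body that no longer makes ribosomal RNA. Ribosomal RNA synthesis resumes around the 2-cell stage, as the embryonic genome is switched on, and functional nucleoli form over the cleavage divisions that lead to the blastocyst.

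Tet3 had 0.519 and 0.412 FPKM in Tet3-null blastocysts and 0.957 and 0.459 FPKM in wild-type blastocysts. At the 2-cell stage it had 3.28 and 4.41 FPKM in Tet3-null embryos against 10.8 and 7.54 FPKM in wild-type embryos, a log2 difference of -1.06 (SE 0.25) that missed the threshold (limma adjusted p = 0.069). Read totals are unknown, and 10607 to 11660 genes reached 1 FPKM per library. The summed FPKM of 6 oocyte genes was 1.31 to 2.101 in blastocyst libraries and 1517 to 2351 in 2-cell libraries. That of 6 genes of the 2-cell stage was 0.789 to 3.42 in blastocyst libraries and 1023 to 1882 in 2-cell libraries. That of 6 trophectoderm genes was 2878 to 4708 in blastocyst libraries and 48.4 to 71.4 in 2-cell libraries. Each of these sums separated the stages. Each of 7 cumulus and granulosa cell genes was under 1 FPKM in every library. Of 5 blood genes, Hba-a2 had 8.25 to 17.0 FPKM and Cd52 8.80 to 28.1 FPKM in the 2-cell libraries, and the others were under 1 FPKM in every library. The library that stood apart was 2-cell Tet3-null replicate 2, with 7101 genes listed at 0 against 5549 to 6080 in the other 2-cell libraries, and it bears directly on the genes described here. In pooled whole embryos, fewer cells of a type and less RNA per cell cannot be told apart.

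Between oocyte genotypes, none of the 40 genes was called at either stage. At the 2-cell stage, 36 of the 40 had a lower mean level in Tet3-null than in wild-type embryos, with a median log2 difference of -0.32, but the level differed widely between the pair of Tet3-null libraries. Background calls in that comparison were 2.72% of the 13549 genes tested. At an unadjusted p under 0.05, limma had 7 of the 40, all lower in Tet3-null embryos (Ubtf, Nhp2, Nop10, Heatr1, Ltv1, Nop16 and Rrp1b), a share of 17.5% against 23.7% of all genes. Of all genes tested, 66.7% had a lower mean in Tet3-null 2-cell embryos, and their median log2 difference was -0.17. With median-of-ratios scaling of the libraries the median of all genes was 0.02 and that of the 40 genes was -0.05, with 25 lower and 15 higher in Tet3-null embryos. Under quantile normalization the median of the 40 genes was -0.17, with 32 lower and 8 higher.

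In blastocysts the median log2 difference of the 40 genes was 0.08, with 30 higher and 10 lower in Tet3-null blastocysts, against a median of -0.02 over all genes. Of all genes tested, 44.6% were higher and 54.2% lower in Tet3-null blastocysts. Background calls there were 0.0664% of genes tested. Surf6 alone had an unadjusted p under 0.05 in limma, where 5.46% of all genes did. Some markers moved with genotype in blastocysts. The 6 trophectoderm genes summed to 3190 and 2878 FPKM in Tet3-null blastocysts, against 4708 and 4401 FPKM in wild-type blastocysts, with both Tet3-null libraries below both wild-type ones for 5 of the 6. The sums of 7 inner cell genes lay closer, at 356.5 and 365.7 FPKM in Tet3-null against 341.9 and 330.1 FPKM in wild-type blastocysts. Of these 7, both Tet3-null libraries were higher for 2 and lower for 1. The 7 Y-linked genes summed to 102 and 94.5 FPKM in Tet3-null blastocysts, against 54.8 and 49.7 FPKM in wild-type blastocysts, and all 7 were higher in both Tet3-null libraries. Their part in the differences of the 40 genes was not tested. The stage-dependence test, of whether the genotype difference itself differed between stages, called 0 of the 40 genes, against 0.14% of all genes. It had 6 at an unadjusted p under 0.05 (Nop10, Heatr1, Wdr12, Nop16, Rrp1b and Surf6), all with a higher difference in blastocysts, a share of 15% against 14.4% of all genes.

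The called changes lay between the stages, in both directions. In Tet3-null embryos 19 of them rose and 7 fell between the 2-cell stage and the blastocyst, against background calls (adjusted p under 0.05) of 38.9% for rises and 35.1% for falls. Among wild-type embryos 9 rose and 10 fell, against 35.8% and 38.4% of all genes. The shares of the 40 genes called, 26 in Tet3-null and 19 in wild-type embryos, were below those of all genes, 74% and 74.3%. Ncl, Mybbp1a, Polr1b, Fbl, Nop56, Bms1, Pes1, Wdr12 and Rrp1b rose in both genotypes, where 33.4% of all genes did. Polr1c, Polr1e, Rrp9, Dkc1, Wdr43, Nop16 and Rrs1 fell in both, where 32.4% did. Called in every one of the 14 alternative settings (other scalings, filters and pseudocount, a replicate block and each library left out) and in both genotypes were the rises of Ncl, Mybbp1a, Polr1b and Pes1 and the falls of Polr1c, Polr1e, Rrp9, Dkc1, Wdr43 and Nop16. No setting divided a library by its summed FPKM, which was 600494.8 to 634816.5 in 2-cell and 924555.6 to 956335.4 in blastocyst libraries. As a share of that sum, the 40 genes together were 0.719% to 0.962% in 2-cell and 0.553% to 0.596% in blastocyst libraries. Rises in FPKM, the smaller ones above all, therefore need not be rises in share. Stage and genotype comparisons are built from the same 8 libraries and are not independent of each other.

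**Figure D1:**
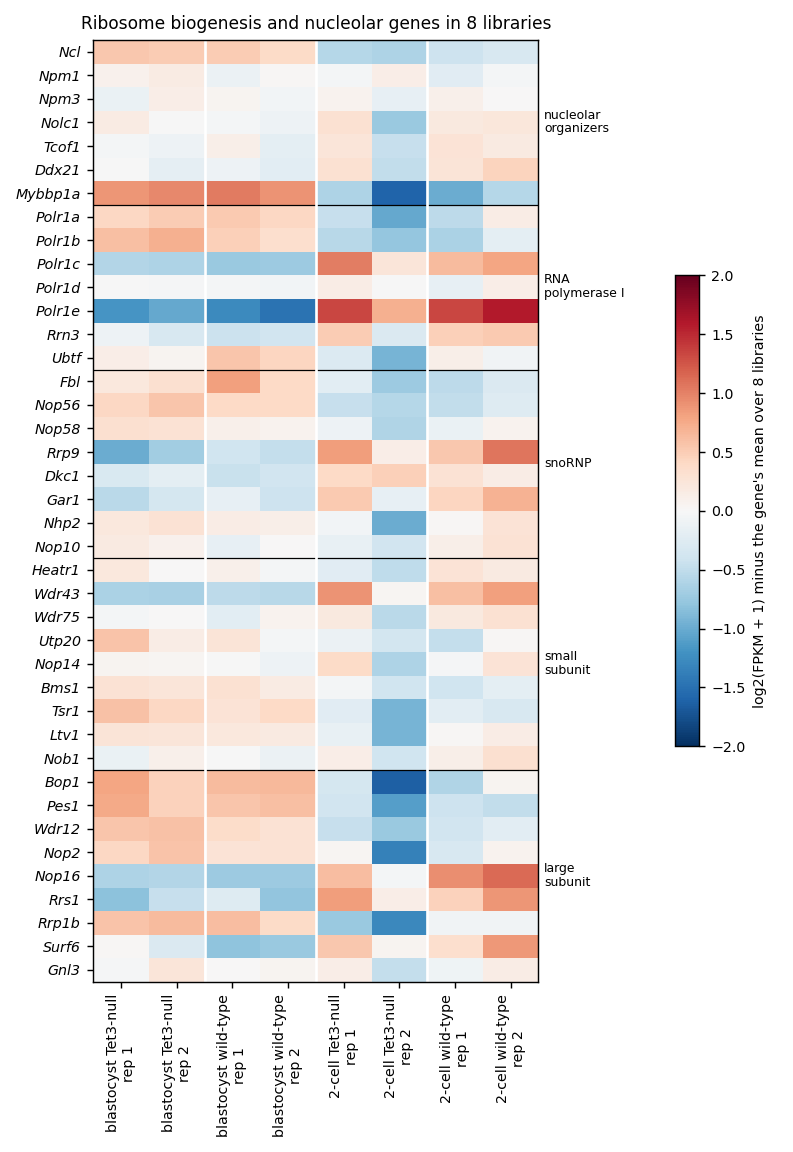
Each row is 1 of the 40 genes and each column 1 of the 8 libraries, with colour giving log2(FPKM + 1) minus the mean of that gene over the 8 libraries, from -2 (blue) to 2 (red), and horizontal lines separating the role classes. Mybbp1a and Polr1e run in opposite directions between the stages, and 2-cell Tet3-null replicate 2 is bluer than its partner library for 38 of the 40 genes.

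Promoter sequence was at hand from RefSeq for 35 of the 40 genes (GRCm38.p6), and not for Rrs1, Npm1, Tcof1, Bop1 and Fbl. In the 250 bases before the annotated start, on both strands, the ETS core CCGGAAG was present in 9 of the 35 genes (25.71%), against 7.826% of 27025 genes. Those 9 were Bms1, Gar1, Heatr1, Ltv1, Nhp2, Nolc1, Nop2, Polr1c and Surf6. The E-box CACGTG was in 2 of the 35 (Nop2 and Rrn3), or 5.71% against 6.86% of all genes. The CCAAT box CCAAT was in 9 of the 35, or 25.71% against 37.495%, and the TATA box TATAAA in 2 of the 35 (Dkc1 and Pes1), or 5.71% against 14.327%. The NRF1 and YY1 cores were in 0 of the 35, against 0.877% and 0.248% of all genes. Median GC content was 57.2% over the 43 promoter entries of these 35 genes and 52.4% over 32851 promoters. The 27025 genes were all those with a promoter entry and were not limited to the 13549 genes tested, whereas all of the 35 were tested. Whether the shares differ from those of other expressed genes was not tested. Matches of so short a motif are descriptions and not sites. The 5 windows below of 60 bases show the ETS core in 4 genes that did not all share a stage pattern, and an E-box of Rrn3. The motif on either strand is in capitals. Another E-box of Rrn3, 215 bases before the start, is not shown. Bms1 (chr6:118419492-118419551, minus strand) rose in both genotypes, and its first capital lies 108 bases before the start. Heatr1 (chr13:12395315-12395374, plus strand, 16 bases before the start) and Nhp2 (chr11:51619713-51619772, plus strand, 23 bases) rose in Tet3-null embryos. Polr1c (chr17:46248054-46248113, minus strand, 42 bases) fell in both genotypes, and Rrn3 (chr16:13780624-13780683, plus strand, 48 bases) fell in wild-type embryos.
Bms1: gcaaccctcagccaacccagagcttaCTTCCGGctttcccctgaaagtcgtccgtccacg
Heatr1: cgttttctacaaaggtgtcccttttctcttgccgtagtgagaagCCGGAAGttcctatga
Nhp2: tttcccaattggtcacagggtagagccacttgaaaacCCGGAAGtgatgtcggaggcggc
Polr1c: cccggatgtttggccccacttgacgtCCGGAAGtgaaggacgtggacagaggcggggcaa
Rrn3: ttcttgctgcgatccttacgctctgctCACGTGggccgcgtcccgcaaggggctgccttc

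Nucleolar chaperones and organizers included the most abundant of the 40 transcripts and 2 genes that rose between the stages in both genotypes. Npm1, which encodes nucleophosmin, the histone chaperone of the granular part of the nucleolus, had 1822 and 1931 FPKM in Tet3-null blastocysts, 1589 and 1744 FPKM in wild-type blastocysts, 1665 and 1881 FPKM in Tet3-null 2-cell embryos and 1474 and 1671 FPKM in wild-type 2-cell embryos. Its level was high in all 8 libraries, and its log2 stage change was 0.08 (SE 0.12) in each genotype, not called. That result depended on the scaling. Under quantile normalization Npm1 was called as a fall, of -0.77 in Tet3-null and -0.86 in wild-type embryos. Ncl, which encodes nucleolin, a binder of nascent ribosomal RNA, had 119 and 116 FPKM in Tet3-null blastocysts and 116 and 106 FPKM in wild-type blastocysts, against 54.3 and 52.5 FPKM in Tet3-null 2-cell embryos and 60.8 and 64.8 FPKM in wild-type 2-cell embryos. All 4 blastocyst libraries were above all 4 2-cell libraries, and the Tet3-null 2-cell pair lay below the wild-type pair. The log2 rise of Ncl was 1.13 (SE 0.13, adjusted p = 0.000143) in Tet3-null and 0.81 (SE 0.13, adjusted p = 0.000799) in wild-type embryos. Mybbp1a, a nucleolar protein that restrains RNA polymerase I and binds the tumour suppressor p53, showed the largest rise of the 40 genes. It had 54.4 and 57.5 FPKM in Tet3-null blastocysts and 60.8 and 54.9 FPKM in wild-type blastocysts, against 18.6 and 8.92 FPKM in Tet3-null 2-cell embryos and 14.2 and 19.1 FPKM in wild-type 2-cell embryos. Means were 4.06-fold higher in blastocysts of the Tet3-null genotype and 3.47-fold higher in those of the wild-type genotype, with log2 rises of 2.03 in Tet3-null (SE 0.31, adjusted p = 0.000788) and 1.75 in wild-type embryos (SE 0.31, adjusted p = 0.00171).

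The 4 other organizers were not called between the stages in either genotype. Nolc1, a chaperone that carries snoRNPs, had 102 and 91.1 FPKM in Tet3-null blastocysts and 88.6 and 84.9 FPKM in wild-type blastocysts, and 113 and 54.2 FPKM in Tet3-null 2-cell embryos and 105 and 107 FPKM in wild-type 2-cell embryos. The single low value is that of 2-cell Tet3-null replicate 2. Tcof1, which encodes treacle, a scaffold for RNA polymerase I at the ribosomal DNA, and Ddx21, an RNA helicase of the nucleolus, had the same shape. Tcof1 had 28.5 and 17.1 FPKM in the Tet3-null 2-cell pair and 29.1 and 27.3 FPKM in the wild-type pair. For Ddx21 the values were 41.8 and 23.6 FPKM in the Tet3-null pair and 40.3 and 46.1 FPKM in the wild-type pair. Npm3, a chaperone related to nucleophosmin, was low throughout, at 3.61 to 4.67 FPKM over the 8 libraries.

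Subunits and factors of RNA polymerase I moved in opposite directions between the stages. Polr1a and Polr1b, the catalytic subunits, were higher in blastocysts, while Polr1c, which RNA polymerases I and III share, and Polr1e, a subunit particular to RNA polymerase I, were lower. Polr1b had 30.6 and 33.0 FPKM in Tet3-null blastocysts and 27.9 and 25.1 FPKM in wild-type blastocysts, against 13.2 and 11.2 FPKM in Tet3-null 2-cell embryos and 12.3 and 17.2 FPKM in wild-type 2-cell embryos. Its log2 rise was 1.32 (SE 0.19, adjusted p = 0.000609) in Tet3-null and 0.82 (SE 0.19, adjusted p = 0.00652) in wild-type embryos, and the stages did not overlap. Polr1a had 12.9 and 13.9 FPKM in Tet3-null blastocysts and 14.0 and 12.9 FPKM in wild-type blastocysts, and 6.63 and 4.11 FPKM in Tet3-null 2-cell embryos and 6.26 and 10.6 FPKM in wild-type 2-cell embryos. It rose in Tet3-null embryos by 1.20 on the log2 scale (SE 0.28, adjusted p = 0.00589), whereas its wild-type difference of 0.65 (SE 0.28, adjusted p = 0.0681) missed the threshold. Whether those 2 stage changes differ is the stage-dependence test, which gave 0.55 (SE 0.40, adjusted p = 0.559).

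Polr1e had the largest stage difference of the 40 genes. It had 14.0 and 15.6 FPKM in Tet3-null blastocysts and 13.0 and 11.2 FPKM in wild-type blastocysts, against 84.9 and 54.3 FPKM in Tet3-null 2-cell embryos and 85.0 and 100.4 FPKM in wild-type 2-cell embryos. The 2-cell mean was 4.71-fold that of blastocysts in Tet3-null and 7.65-fold in wild-type embryos, and the falls on the log2 scale were -2.13 in Tet3-null (SE 0.23, adjusted p = 0.000124) and -2.83 in wild-type embryos (SE 0.23, adjusted p = 3.22e-05). Polr1c had 143 and 140.5 FPKM in Tet3-null blastocysts and 129 and 130.0 FPKM in wild-type blastocysts, against 438 and 255 FPKM in Tet3-null 2-cell embryos and 334 and 372 FPKM in wild-type 2-cell embryos. Its log2 falls were -1.23 (SE 0.24, adjusted p = 0.00243) in Tet3-null and -1.44 (SE 0.24, adjusted p = 0.00113) in wild-type embryos. Polr1d, the other subunit shared with RNA polymerase III, had 372 to 464 FPKM in the 8 libraries and was not called. On the per-length scale of FPKM, the 2-cell mean of Polr1c was 346 FPKM in Tet3-null and 353 FPKM in wild-type embryos, while that of Polr1a was 5.37 FPKM in Tet3-null and 8.44 FPKM in wild-type embryos.

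Rrn3, the initiation factor that makes RNA polymerase I competent to start, had 116 and 99.4 FPKM in Tet3-null blastocysts and 92.7 and 96.0 FPKM in wild-type blastocysts, and 178 and 103 FPKM in Tet3-null 2-cell embryos and 174 and 181 FPKM in wild-type 2-cell embryos. It fell by 0.90 on the log2 scale in wild-type embryos (SE 0.25, adjusted p = 0.0124), and in Tet3-null embryos its difference was -0.33 (SE 0.25, adjusted p = 0.263). Ubtf, the upstream binding factor that keeps ribosomal DNA open, had both Tet3-null libraries below both wild-type libraries at each stage. It had 16.7 and 15.7 FPKM in Tet3-null against 22.8 and 20.9 FPKM in wild-type blastocysts, and 12.4 and 7.49 FPKM in Tet3-null against 16.6 and 14.4 FPKM in wild-type 2-cell embryos. Its genotype differences on the log2 scale, -0.41 in blastocysts (SE 0.23, adjusted p = 1) and -0.63 in 2-cell embryos (SE 0.23, adjusted p = 0.163), were not called.

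**Figure D2:**
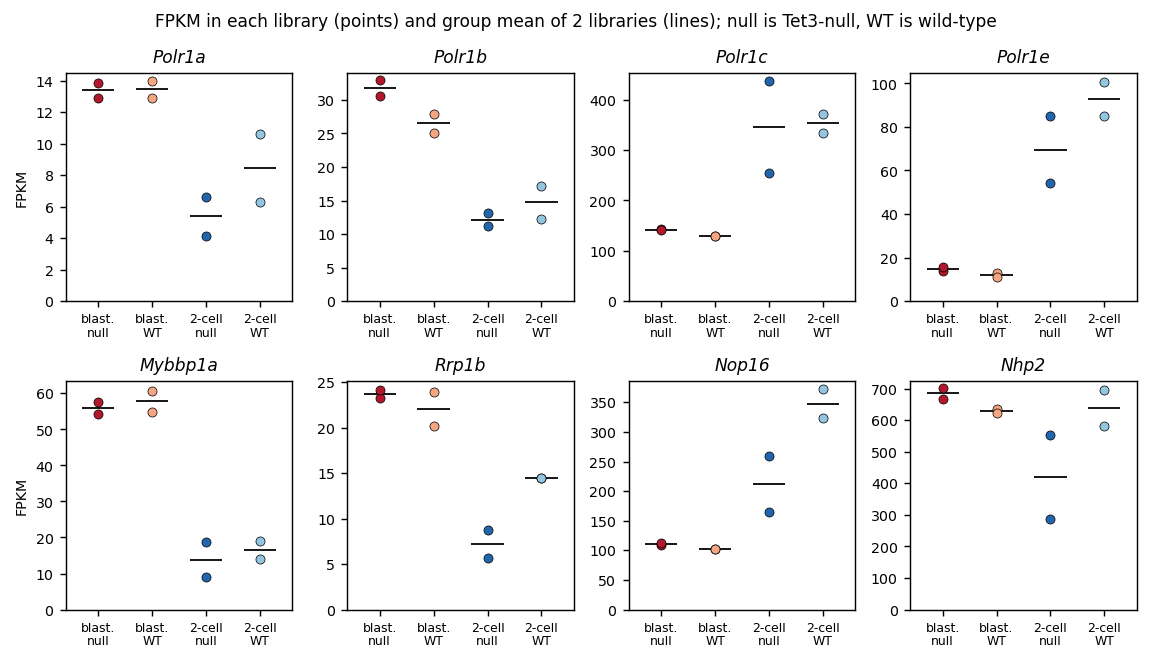
FPKM of 8 of the genes in each of the 8 libraries (points) with the mean of 2 libraries (line), from left Tet3-null blastocysts, wild-type blastocysts, Tet3-null 2-cell embryos and wild-type 2-cell embryos, on linear axes that start at 0. Polr1a, Polr1b, Mybbp1a and Rrp1b are higher in blastocysts, Polr1c, Polr1e and Nop16 are higher in 2-cell embryos, and Nhp2 has 1 low library, at 287 FPKM.

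Of the 8 snoRNP genes, 5 rose and 2 fell between the stages in Tet3-null embryos, against 38.9% and 35.1% of all genes, and 2 rose and 3 fell in wild-type embryos, against 35.8% and 38.4%. C/D particles methylate ribosomal RNA, with Fbl, fibrillarin, as the methyltransferase and Nop56 and Nop58 as its core partners. Fbl had 107 and 116 FPKM in Tet3-null blastocysts and 165 and 123 FPKM in wild-type blastocysts, against 79.4 and 55.4 FPKM in Tet3-null 2-cell embryos and 63.8 and 75.5 FPKM in wild-type 2-cell embryos. It rose in both genotypes, by 0.74 (SE 0.22, adjusted p = 0.0184) in Tet3-null and 1.03 (SE 0.22, adjusted p = 0.0043) in wild-type embryos on the log2 scale. Nop56 had 364 and 400.2 FPKM in Tet3-null blastocysts and 357 and 360.3 FPKM in wild-type blastocysts, against 197 and 183 FPKM in Tet3-null 2-cell embryos and 193 and 228 FPKM in wild-type 2-cell embryos, with no overlap of stages. Nop58, at 101 to 190.4 FPKM over the 8 libraries, rose by 0.65 in Tet3-null embryos (SE 0.18, adjusted p = 0.013) and had a difference of 0.12 (SE 0.18, adjusted p = 0.558) in wild-type embryos. Rrp9, which binds the snoRNA that starts small subunit cleavage, went the other way. It had 18.7 and 23.1 FPKM in Tet3-null blastocysts and 28.6 and 27.0 FPKM in wild-type blastocysts, against 68.7 and 42.0 FPKM in Tet3-null 2-cell embryos and 55.9 and 80.8 FPKM in wild-type 2-cell embryos, with log2 falls of -1.33 in Tet3-null (SE 0.27, adjusted p = 0.00338) and -1.25 in wild-type embryos (SE 0.27, adjusted p = 0.00472).

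H/ACA particles convert uridine to pseudouridine, and their 4 proteins did not move together. Dkc1, dyskerin, the pseudouridine synthase, is X-linked and was the 1 gene of the 40 whose Tet3-null 2-cell libraries both lay above the wild-type pair. It had 79.1 and 85.3 FPKM in Tet3-null blastocysts and 71.0 and 74.8 FPKM in wild-type blastocysts, and 129 and 136 FPKM in Tet3-null 2-cell embryos and 119.6 and 108 FPKM in wild-type 2-cell embryos. Dkc1 fell between the stages by 0.68 in Tet3-null (SE 0.13, adjusted p = 0.00207) and by 0.64 in wild-type embryos (SE 0.13, adjusted p = 0.00292), while its 2-cell genotype difference of 0.21 (SE 0.13, adjusted p = 0.342) was not called. Nhp2, a small core protein of the particle, had 667 and 703 FPKM in Tet3-null blastocysts and 635 and 622 FPKM in wild-type blastocysts, and 552 and 287 FPKM in Tet3-null 2-cell embryos and 581.7 and 695 FPKM in wild-type 2-cell embryos. Both Tet3-null 2-cell libraries were below the wild-type pair, by 0.67 on the log2 scale (SE 0.28, adjusted p = 0.203). Nop10, the smallest core protein, had 494 and 463 FPKM in Tet3-null blastocysts and 390.3 and 439 FPKM in wild-type blastocysts, and 393 and 333 FPKM in Tet3-null against 473 and 533 FPKM in wild-type 2-cell embryos. Nhp2 (0.78, SE 0.28, adjusted p = 0.0367) and Nop10 (0.40, SE 0.14, adjusted p = 0.0321) rose between the stages in Tet3-null embryos, and in wild-type embryos the differences were -0.02 for Nhp2 (adjusted p = 0.963) and -0.28 for Nop10 (adjusted p = 0.105). The rise of Nop10 turned to -0.12 under quantile normalization. Gar1, the remaining core protein, had 11.96 and 13.8 FPKM in Tet3-null blastocysts and 15.9 and 13.2 FPKM in wild-type blastocysts, against 26.1 and 15.9 FPKM in Tet3-null 2-cell embryos and 24.6 and 29.5 FPKM in wild-type 2-cell embryos. It fell by 0.85 in wild-type embryos (SE 0.25, adjusted p = 0.0169), and its Tet3-null difference was -0.62 (SE 0.25, adjusted p = 0.0544).

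Of the 9 small subunit factors, 4 rose and 1 fell between the stages in Tet3-null embryos (38.9% and 35.1% of all genes), and 1 rose and 1 fell in wild-type embryos (35.8% and 38.4% of all genes). Wdr43, a component of the complex that binds the nascent precursor, was the 1 gene that fell in both genotypes. It had 35.1 and 34.5 FPKM in Tet3-null blastocysts and 37.9 and 36.8 FPKM in wild-type blastocysts, against 103 and 55.9 FPKM in Tet3-null 2-cell embryos and 83.2 and 97.6 FPKM in wild-type 2-cell embryos, with log2 falls of -1.11 in Tet3-null (SE 0.27, adjusted p = 0.00722) and -1.25 in wild-type embryos (SE 0.27, adjusted p = 0.00416). Bms1, a GTPase of the small subunit processome, rose in both, with 18.4 and 17.7 FPKM in Tet3-null blastocysts and 18.5 and 16.8 FPKM in wild-type blastocysts against 14.4 and 11.0 FPKM in Tet3-null 2-cell embryos and 11.0 and 12.8 FPKM in wild-type 2-cell embryos. Tsr1, an assembly factor that sits on the immature small subunit, had 24.1 and 21.3 FPKM in Tet3-null blastocysts and 19.2 and 21.0 FPKM in wild-type blastocysts, against 13.3 and 7.77 FPKM in Tet3-null 2-cell embryos and 13.5 and 12.4 FPKM in wild-type 2-cell embryos. Tsr1 rose in Tet3-null embryos by 1.08 (SE 0.24, adjusted p = 0.00469), and its wild-type difference of 0.60 (SE 0.24, adjusted p = 0.0549) lay just outside the threshold. Heatr1 and Ltv1 rose in Tet3-null embryos alone by the threshold, which does not show that the genotypes differ. Heatr1, an early processome protein, had 9.53 and 8.12 FPKM in Tet3-null blastocysts and 8.74 and 7.87 FPKM in wild-type blastocysts, and 6.80 and 5.42 FPKM in Tet3-null against 9.95 and 9.27 FPKM in wild-type 2-cell embryos. Ltv1, a factor for the export of the small subunit, had 86.6 and 84.9 FPKM in Tet3-null blastocysts and 83.2 and 81.8 FPKM in wild-type blastocysts, and 64.8 and 37.2 FPKM in Tet3-null against 73.3 and 80.0 FPKM in wild-type 2-cell embryos. For both genes the 2 Tet3-null 2-cell libraries were the low ones of 8, and the genotype differences at that stage were -0.58 (SE 0.18, adjusted p = 0.116) for Heatr1 and -0.63 (SE 0.24, adjusted p = 0.178) for Ltv1. The processome genes Wdr75, Utp20 and Nop14, and Nob1, the nuclease that makes the last cut of the small subunit RNA, were not called in any comparison, with means of 4.10 to 100.3 FPKM over the 4 groups.

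The 9 large subunit factors had 5 rises and 2 falls in Tet3-null embryos, where 38.9% of all genes rose and 35.1% fell, and 3 rises and 3 falls in wild-type embryos, where 35.8% rose and 38.4% fell. Among them, the 3 genes of the Pes1, Bop1 and Wdr12 complex, which is needed to mature the large subunit RNA, were all higher in blastocysts. Pes1 had 27.8 and 22.5 FPKM in Tet3-null blastocysts and 24.2 and 24.9 FPKM in wild-type blastocysts, against 12.2 and 6.99 FPKM in Tet3-null 2-cell embryos and 11.8 and 11.1 FPKM in wild-type 2-cell embryos. Its log2 rise was 1.34 (SE 0.25, adjusted p = 0.00196) in Tet3-null and 1.03 (SE 0.25, adjusted p = 0.007) in wild-type embryos. Wdr12 had 39.1 and 40.05 FPKM in Tet3-null blastocysts and 34.5 and 32.4 FPKM in wild-type blastocysts, against 18.8 and 15.4 FPKM in Tet3-null 2-cell embryos and 20.1 and 22.6 FPKM in wild-type 2-cell embryos. It rose by 1.17 (SE 0.16, adjusted p = 0.000371) in Tet3-null and 0.62 (SE 0.16, adjusted p = 0.00843) in wild-type embryos. Bop1 had 24.5 and 19.2 FPKM in Tet3-null blastocysts and 21.8 and 22.2 FPKM in wild-type blastocysts, against 10.5 and 3.76 FPKM in Tet3-null 2-cell embryos and 8.75 and 14.3 FPKM in wild-type 2-cell embryos. Its rise of 1.62 in Tet3-null embryos (SE 0.41, adjusted p = 0.00932) was called and its difference of 0.91 in wild-type embryos (SE 0.41, adjusted p = 0.0824) was not. At the 2-cell stage its genotype difference was -0.72 (SE 0.41, adjusted p = 0.327), not called. For each gene of the complex, the blastocyst libraries were all above the 2-cell ones.

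Rrp1b, a nucleolar protein that recruits a protein phosphatase to the nucleolus, had the largest genotype difference of the 40 at the 2-cell stage. It had 23.3 and 24.2 FPKM in Tet3-null blastocysts and 23.9 and 20.2 FPKM in wild-type blastocysts, and 8.73 and 5.69 FPKM in Tet3-null against 14.5 and 14.5 FPKM in wild-type 2-cell embryos. Tet3-null 2-cell embryos had 0.497 times the wild-type mean, a log2 difference of -0.94 (SE 0.21, adjusted p = 0.0619) that missed the threshold, and the difference between stages in that effect was 1.05 (SE 0.29, adjusted p = 0.208). Rrp1b rose between the stages by 1.62 (SE 0.21, adjusted p = 0.000306) in Tet3-null and 0.57 (SE 0.21, adjusted p = 0.0396) in wild-type embryos. Nop16, a protein of early large subunit particles, had 109.6 and 112 FPKM in Tet3-null blastocysts and 101 and 102 FPKM in wild-type blastocysts, and 259.9 and 165 FPKM in Tet3-null against 324 and 372 FPKM in wild-type 2-cell embryos. At the 2-cell stage its difference was -0.74 (SE 0.21, adjusted p = 0.102). Between the stages it fell by 0.89 in Tet3-null (SE 0.21, adjusted p = 0.00656) and by 1.76 in wild-type embryos (SE 0.21, adjusted p = 0.000228).

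Rrs1, which acts in the building of the large subunit, fell in both genotypes, with 5.25 and 7.01 FPKM in Tet3-null blastocysts and 8.22 and 5.43 FPKM in wild-type blastocysts against 18.8 and 11.1 FPKM in Tet3-null 2-cell embryos and 14.2 and 19.5 FPKM in wild-type 2-cell embryos. Its log2 stage differences were -1.13 in Tet3-null (SE 0.31, adjusted p = 0.0129) and -1.20 in wild-type embryos (SE 0.31, adjusted p = 0.0102). Surf6, a nucleolar matrix protein, had the largest genotype difference in blastocysts, with 9.61 and 7.57 FPKM in Tet3-null against 4.99 and 5.26 FPKM in wild-type blastocysts. That was a log2 difference of 0.64 (SE 0.25, adjusted p = 0.899), not called. Surf6 had 14.2 and 9.83 FPKM in Tet3-null 2-cell embryos and 12.1 and 18.1 FPKM in wild-type 2-cell embryos, and fell between the stages by 1.37 in wild-type embryos (SE 0.25, adjusted p = 0.00203). Nop2, a methyltransferase of large subunit RNA, had 62.1 and 69.3 FPKM in Tet3-null blastocysts and 56.0 and 56.5 FPKM in wild-type blastocysts, and 47.4 and 17.5 FPKM in Tet3-null 2-cell embryos and 36.9 and 48.8 FPKM in wild-type 2-cell embryos. Gnl3, nucleostemin, a nucleolar GTPase abundant in stem cells, had 55.5 to 92.4 FPKM over the 8 libraries and was not called.

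**Figure D3:**
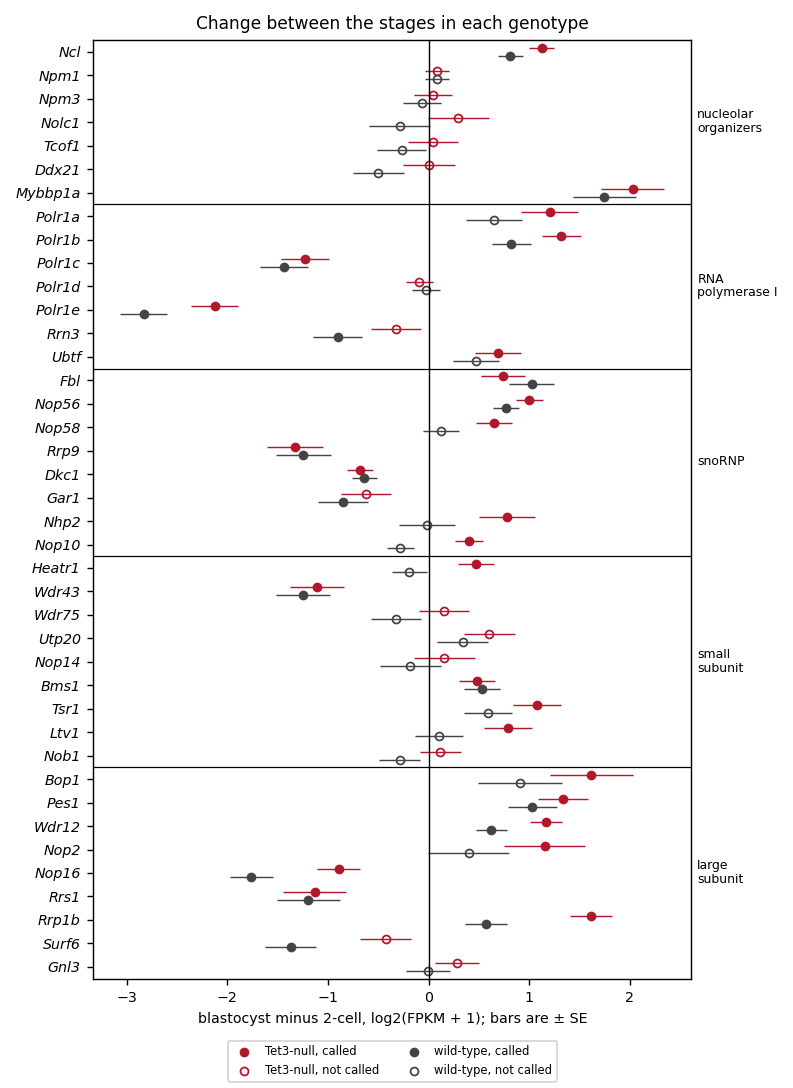
Blastocyst minus 2-cell difference in log2(FPKM + 1) of each gene in Tet3-null (red) and wild-type embryos (grey), with bars of ± SE from the limma fit and filled points for an adjusted p under 0.05. Mybbp1a lies farthest right, at 2.03 in Tet3-null and 1.75 in wild-type embryos, and Polr1e farthest left, at -2.13 in Tet3-null and -2.83 in wild-type embryos.

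Separation of the libraries was also counted without a test. At the 2-cell stage, both Tet3-null libraries lay below both wild-type libraries for 10 of the 40 genes, Ncl, Polr1e, Ubtf, Nhp2, Nop10, Heatr1, Ltv1, Wdr12, Nop16 and Rrp1b, against 34.9% of all genes tested. Dkc1 was the 1 gene with both above, where 12.6% of all genes were. Among blastocysts, the Tet3-null pair lay above the wild-type pair for 20 of the 40 genes, against 19% of all genes, and below it for 4 (Ubtf, Fbl, Rrp9 and Wdr43), against 25.3%. The sizes were small, with log2 differences between -0.41 (Ubtf) and 0.64 (Surf6), and the blastocyst differences of Fbl (-0.35, SE 0.22), Rrp9 (-0.40, SE 0.27) and Polr1e (0.27, SE 0.23) each had an adjusted p of 1.

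**Figure D4:**
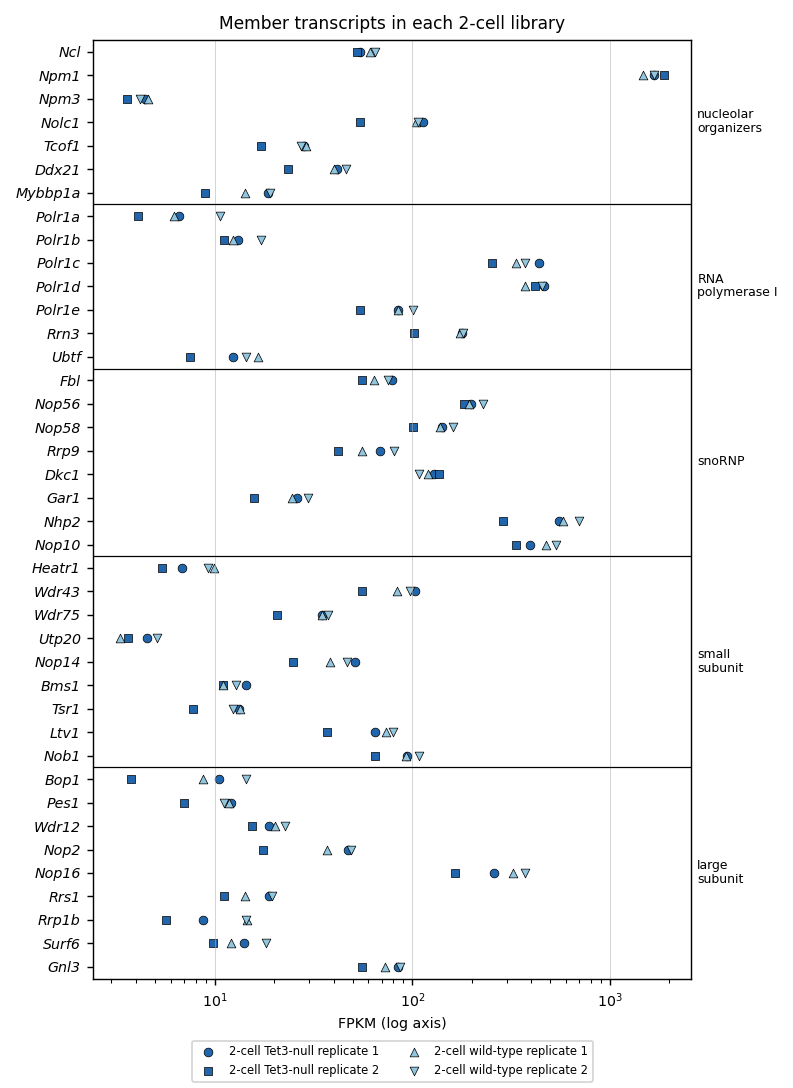
FPKM of the 40 genes, on a log axis, in the 2 Tet3-null (dark circles and squares) and the 2 wild-type (pale triangles) 2-cell libraries. The squares, Tet3-null replicate 2, are the leftmost mark for 36 of the 40 genes, and Npm1 lies far right of the rest.

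The lower 2-cell values of these genes in Tet3-null embryos lay mainly in 1 library. Tet3-null replicate 2 was the lowest of the 4 2-cell libraries for 36 of the 40 genes, where it was the lowest for 42.5% of all genes, and Tet3-null replicate 1 was the lowest for 0 of the 40. Replicate 2 lay below replicate 1 for 38 of the 40 genes, with a median log2 gap of -0.64, whereas 53.1% of all genes did, with a median gap of -0.04. The widest gap was that of Nop2, at -1.39. Npm1 and Dkc1 were the 2 genes higher in replicate 2. The wild-type replicates also differed, with 32 of the 40 genes higher and 8 lower in replicate 2 and a median gap of 0.21. Of all genes, 49.3% were lower in wild-type replicate 2, with a median gap of 0. Over the 40 genes, the median log2(FPKM + 1) was 5.65 in replicate 1 and 4.65 in replicate 2 of Tet3-null 2-cell embryos, 5.33 and 5.61 in wild-type 2-cell embryos, and 5.14 to 5.25 in the 4 blastocyst libraries.

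Calls followed the choice of library. With replicate 2 left out of the Tet3-null 2-cell group, 0 of the 40 genes were called (background 2.32%), the median difference was -0.02, and 20 genes were higher and 20 lower. With replicate 1 left out instead, 24 were called, all lower in Tet3-null embryos (background 19.2% for lower calls), the median was -0.67, and the stage-dependence test called 14, all higher in blastocysts (background 9.51%). The remaining library is then assumed to vary like the other groups. Rrp1b kept a difference of -0.67 (adjusted p = 0.0799) with replicate 2 left out and -1.21 (adjusted p = 0.00644) with replicate 1 left out, and Nop16 had -0.42 (adjusted p = 0.124) without replicate 2 and -1.07 (adjusted p = 0.00504) without replicate 1. For Nop2 the direction turned, to 0.16 (adjusted p = 0.675) without replicate 2, against -1.23 (adjusted p = 0.00977) without replicate 1. Without replicate 2, 21 genes were called between the stages in Tet3-null embryos (background 74.2%). Ubtf, Fbl, Nhp2, Nop10, Heatr1, Bms1 and Nop2 then missed the threshold with differences still positive, such as 0.37 for Ubtf and 0.33 for Heatr1, and Rrn3 and Gar1 were called as falls. Nhp2, Heatr1, Bms1 and Nop2 missed it when any library other than 2-cell Tet3-null replicate 1 was left out.

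Marker levels in the same libraries, with replicate 1 of each pair first, were as follows. For 6 of 7 genes of the 2-cell stage that were listed, the summed FPKM was 1373 and 1882 in Tet3-null embryos, against 1238 and 1023 in wild-type embryos, and 5 of the 6 were highest in Tet3-null replicate 2. The 6 oocyte genes summed to 1766 and 2351 in Tet3-null embryos, against 1756 and 1517 in wild-type embryos, but Oosp1 carried most of that sum. Without Oosp1 the other 5 summed to 235.5 and 359 in Tet3-null embryos, against 362 and 294 in wild-type embryos, so that Tet3-null replicate 2 lay within the range of the other libraries. The 4 sperm genes summed to 11.1 and 20.3 in Tet3-null embryos, against 6.83 and 5.59 in wild-type embryos, and without Prm2 to 2.52 and 3.18 in Tet3-null embryos, against 4.36 and 1.17 in wild-type embryos. The 7 Y-linked genes summed to 31.7 and 0.167 FPKM in Tet3-null 2-cell embryos and 48.5 and 49.1 FPKM in wild-type 2-cell embryos, and all 7 were lowest in Tet3-null replicate 2. The part of these measures in the lower values of the 40 genes was not tested.

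**Figure D5:**
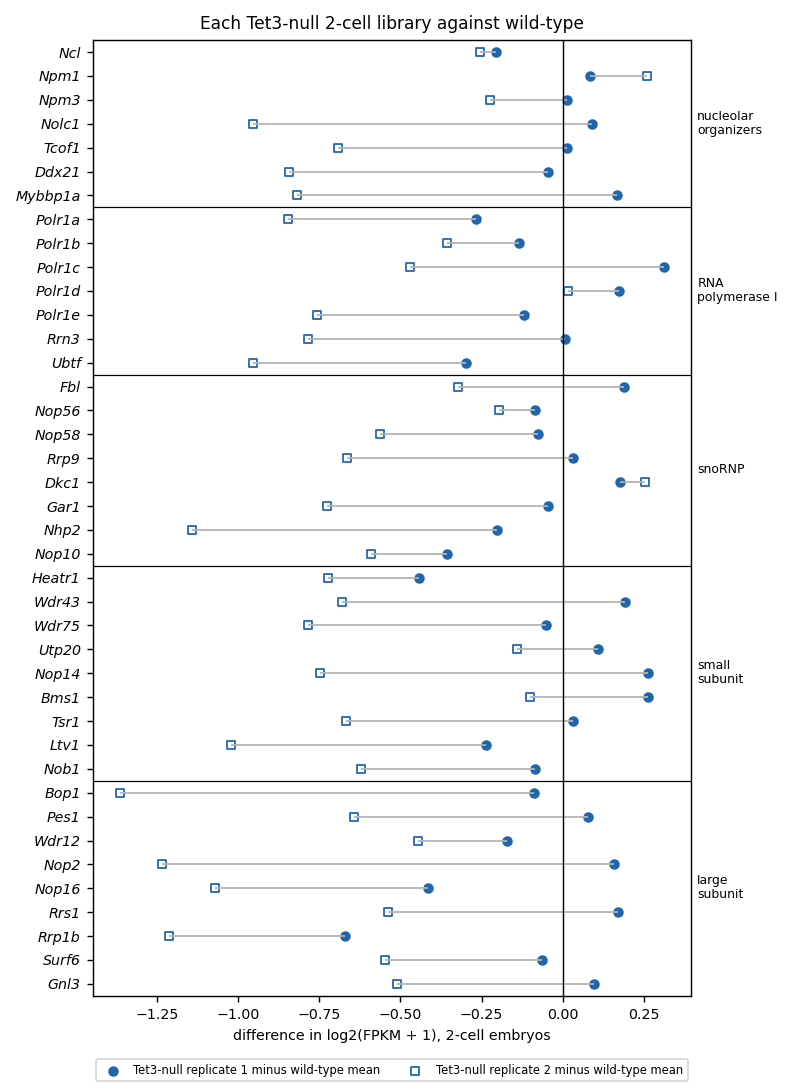
For each gene, log2(FPKM + 1) of Tet3-null 2-cell replicate 1 (filled circles) and replicate 2 (open squares) minus the wild-type 2-cell mean. The circles lie on both sides of 0, with 20 genes above and 20 below, and the squares lie left of their circles for 38 of the 40 genes.

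A further 108 listed genes of ribosome biogenesis, from a separate list of 111 names, were tested in the same fit. None was called between genotypes at either stage. At an unadjusted p under 0.05 limma had 32 at the 2-cell stage (31 lower and 1 higher in Tet3-null embryos), a share of 29.6% against 23.7% of all genes, and 5 in blastocysts (2 higher and 3 lower), a share of 4.63% against 5.46%. Their median log2 difference was -0.41 at the 2-cell stage and 0.06 in blastocysts, and 92 of the 108 were lower in replicate 2 than in replicate 1 of the Tet3-null 2-cell pair. Nat10, an RNA acetyltransferase, had 3.98 and 2.80 FPKM in Tet3-null against 7.22 and 7.80 FPKM in wild-type 2-cell embryos, a difference of -0.97 (SE 0.19, adjusted p = 0.0508). Exosc5, a subunit of the RNA exosome, had 26.7 and 10.9 FPKM in Tet3-null against 48.2 and 45.9 FPKM in wild-type 2-cell embryos (-1.41, SE 0.36, adjusted p = 0.0811). Rrp7a (-1.15, SE 0.44, adjusted p = 0.174) and the helicase gene Ddx10 (-0.98, SE 0.31, adjusted p = 0.124) were the others of the 4 largest differences. In blastocysts the 4 largest were Gltscr2 (-0.94, adjusted p = 0.573), Exosc4 (-0.78, adjusted p = 0.913), Ddx54 (-0.56, adjusted p = 1) and Ppan (-0.52, adjusted p = 1).

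Between the stages, 44 of the 108 genes rose and 26 fell in Tet3-null embryos, against 38.9% and 35.1% of all genes. In wild-type embryos 33 rose and 42 fell, against 35.8% and 38.4% of all genes. Wdr18, a factor of late large subunit maturation, had 78.8 and 64.9 FPKM in Tet3-null blastocysts and 96.3 and 89.8 FPKM in wild-type blastocysts, against 9.46 and 5.03 FPKM in Tet3-null 2-cell embryos and 7.67 and 11.8 FPKM in wild-type 2-cell embryos. Its log2 rises were 3.19 in Tet3-null (SE 0.30, adjusted p = 5.99e-05) and 3.16 in wild-type embryos (SE 0.30, adjusted p = 6.83e-05). Shq1, the chaperone that delivers dyskerin to new H/ACA particles, had 13.2 and 17.3 FPKM in Tet3-null blastocysts and 11.7 and 18.0 FPKM in wild-type blastocysts, against 0.587 and 1.41 FPKM in Tet3-null 2-cell embryos and 1.39 and 1.62 FPKM in wild-type 2-cell embryos. It rose by 3.04 in Tet3-null (SE 0.29, adjusted p = 6.14e-05) and 2.63 in wild-type embryos (SE 0.29, adjusted p = 0.000137), while Dkc1, the gene of its client, fell. The helicase gene Ddx56 rose by 3.09 in Tet3-null (SE 0.31, adjusted p = 8.74e-05) and 2.55 in wild-type embryos (SE 0.31, adjusted p = 0.000249). Exosc7, of the RNA exosome, rose by 2.93 in Tet3-null embryos (SE 0.17, adjusted p = 6.65e-06), and Rrp1, a relative of Rrp1b, by 2.73 in wild-type embryos (SE 0.14, adjusted p = 4.01e-06). Both were higher in blastocysts of the other genotype too, with means 4.11-fold higher for Exosc7 in wild-type and 4.60-fold higher for Rrp1 in Tet3-null embryos. Taf1d went the other way, with 2-cell means 6.21-fold those of blastocysts in Tet3-null and 5.16-fold in wild-type embryos.

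Some values rest on sequence that genes share. The library kit does not mark strand, and 10 of the 40 genes overlap an exon of a listed protein-coding gene on the opposite strand, Mybbp1a with Spns2, Nop56 with Idh3b, Rrp9 with Parp3, Dkc1 with Mpp1, Nhp2 with Rmnd5b, Heatr1 with Lgals8, Tsr1 with Srr, Wdr12 with Carf, Rrp1b with Hsf2bp and Gnl3 with Pbrm1. Reads of such a pair cannot be told apart where they overlap. The same holds for listed snoRNA genes that overlap an exon on the same strand, Snora75 in Ncl, Snord57 in Nop56, and Snord69 and Snord19 in Gnl3. Ddx21, Fbl, Nop56, Npm1, Npm3, Pes1, Tsr1 and Wdr12 have at least 1 other annotated transcript with 95% identity over 200 bases or more, and their levels are uncertain to the extent that reads were split between copies.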

How the data were processed

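The 40 genes, the list of 111 further genes and the comparisons were chosen with earlier results of these data known. Per the labels' protocols, pooled embryos were lysed, and cDNA was amplified with a SMARTer low-input kit before libraries were prepared without marking strand. The deposited values are FPKM, which the authors made on build mm9 with Cufflinks 2.2.0 after TopHat2 2.0.10 and Bowtie2 2.1.0, per the submitters' processing notes. For the annotation, the settings and reads shared by near copies, the processing was not given in the sources used here. FPKM of a library is relative to its own total, and low genes carry more counting error. Summed over all genes, FPKM was 600494.8 to 634816.5 in 2-cell libraries and 924555.6 to 956335.4 in blastocyst libraries. Read depth is unknown. The commonest ratio of low values put the depth of the libraries of a stage at 1.022 to 1.314 times that of wild-type replicate 1.

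All 8 libraries were fitted together in limma 3.58.1 (R 4.3.3), with 4 group means, on log2(FPKM + 1), for the 13549 genes that reached 1 FPKM in 2 or more libraries. The fit used empirical Bayes moderation with an intensity trend, with 4 residual and 3.07 prior degrees of freedom. It was tested on simulated data with independent noise, of the same spread for a gene in all groups. A shift shared by many genes of a library, as in 2-cell Tet3-null replicate 2, was not covered by that simulation. Tests were two-sided, with Benjamini-Hochberg adjustment over all genes tested and calls at an adjusted p under 0.05, and all adjusted p-values come from this limma fit. Fold changes on this scale understate changes of low genes. The comparisons were Tet3-null minus wild-type at each stage, the blastocyst difference minus the 2-cell difference (stage dependence) and blastocyst minus 2-cell in each genotype. All 40 genes are given by their values or ranges. Differences with SE and adjusted p are given for the 5 largest in each genotype comparison, for the 5 largest rises and falls between stages, and for some other genes chosen after their values were seen. Of the 111 names 108 were listed, 10 by a synonym. Their 4 largest differences are named for each genotype comparison and for the stages in each genotype, but not for stage dependence. Exon overlaps and near copies were taken from GENCODE M21, and promoter sequence from RefSeq on GRCm38.p6. No library pair of a group shared identical values other than 0. Alternatives were a pseudocount of 0.1, no filter, median-of-ratios scaling, quantile normalization, fits of the compared groups alone, a replicate block and leaving out each library.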

Additional observations from a re-analysis of the deposited data

How the results depend on the processing

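The stage changes that were called kept their sign in every alternative, except that of Nop10 in Tet3-null embryos under quantile normalization (-0.12). Calls moved more. Under that normalization 21 genes were called in Tet3-null embryos. Ubtf, Fbl, Nop58, Nhp2, Nop10, Heatr1, Bms1, Ltv1 and Nop2 then missed the threshold, while Npm1, Polr1d, Rrn3 and Gar1 passed it. Of the 40 differences 19 were then positive, against 29 in the main fit. In wild-type embryos 23 were called, without Nop56 and with Npm1, Polr1d, Nop10, Tsr1 and Nob1 added. When each library was left out in turn, the number of the 40 genes called ranged over 0 to 24 for the 2-cell genotype comparison, 0 to 14 for stage dependence, 15 to 29 for the stages in Tet3-null embryos and 14 to 27 for the stages in wild-type embryos. The high values of the genotype and stage-dependence counts came without 2-cell Tet3-null replicate 1, and 15 and 17 without blastocyst Tet3-null replicates 1 and 2. With the replicate block, 0, 0, 0, 24 and 19 genes were called in the 2-cell genotype, blastocyst genotype, stage-dependence, Tet3-null stage and wild-type stage comparisons. The pairing by replicate number had correlations of deviations over all genes of -0.0756 at the 2-cell stage and 0.0184 in blastocysts. With 2 libraries a group, these cannot show whether libraries of the same number were collected together, which the labels do not say. The blastocyst genotype median was 0.14 with median-of-ratios scaling. The wild-type stage median was 0.13 with that scaling and -0.30 under quantile normalization, and the causes were not tested. Over all genes, 2-cell genotype calls numbered 368 (83 higher and 285 lower in Tet3-null embryos), and 147 with median-of-ratios scaling (83 higher and 64 lower), 198 under quantile normalization (94 higher and 104 lower), 31 with the replicate block and 3 with the 2-cell libraries alone. With 2 libraries a group and unknown depth, small differences could not be resolved.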
